A study of Mus musculus with 14 samples.

Results

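The genes of the voltage-gated ion channel families and their relatives were followed over 3 stages of a mouse model of medulloblastoma, a tumor of the cerebellum. They were chosen by name: every probe set of the array with 1 annotated symbol that began with Kcn and a further letter (potassium channels), with Scn, a number and a or b (sodium channels), or with Cacna, Cacnb or Cacng (calcium channels). This gave 72 probe sets for 60 of the 8251 genes on the array, and where a gene had several, the set with the highest mean log2 intensity over the 14 arrays stood for it. All 14 samples came from patched heterozygous mice, in which 1 copy of the hedgehog receptor gene is mutated. The granule cell precursors (GCP, n = 4), dividing cells that give rise to cerebellar granule neurons, were taken at 7 days of age. The preneoplastic cells (pretumor, n = 5) came from animals 6 weeks old, and the tumor cells (tumor, n = 5) from animals of 10 to 25 weeks with signs of medulloblastoma. Cells of each source were released from the cerebellum with papain and collected from a Percoll gradient without sorting, so other cerebellar cells could be present, and age and stage cannot be told apart. The labels do not say that samples of a group came from separate animals, and the p-values then measure only the spread between these samples.

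Voltage-gated potassium, sodium and calcium channels are membrane pores that open when the voltage across the membrane changes, and together they shape the firing of neurons. Their pore-forming alpha subunits assemble with accessory subunits that set gating and delivery to the surface. The name rule also took in relatives that are not opened mainly by voltage: inward rectifiers (Kcnj), 2-pore leak channels (Kcnk) and some calcium-activated channels (Kcnn). Granule neurons acquire much of their channel set as they leave the cell cycle, migrate and mature.

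Levels are intensities as deposited, or their log2 as group mean ± SD. Most of the array read low, and an intensity of 16 (4 on the log2 scale) is used as the lower limit of a clear signal; values below it are called the low band, and a gene there is not shown to be silent. Between 29.2% and 29.8% of probe sets reached 16 on each array. Within GCP, samples 1 and 2 correlated at 0.9977 and samples 3 and 4 at 0.9975, while correlations across these pairs were 0.9939 to 0.9956, and the 4 may not be independent replicates. Pretumor 3 and tumor 2 were set apart from their groups in earlier results of these data, and the main calls are also given without them.

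Of the 60 channel genes, 55 (91.7%) stayed below 16 on every array, against 4894 of 8251 genes overall (59.3%). The 5 that reached it were Kcnd2, Kcnk1, Kcnk2, Kcnma1 and Cacna1c, all among the 49 pore-forming subunits. None of the 11 accessory subunits reached it. By ion these were 4 of 42 potassium, 0 of 6 sodium and 1 of 12 calcium channel genes. All 5 were at or above 16 on every GCP array, 3 of them on every pretumor array and 2 on every tumor array. On single arrays the count was 5 in each GCP sample and 3 or 4 in each pretumor and tumor sample. The gene nearest to the limit from below was Cacnb2, with a highest intensity of 13.8, and the nearest from above was Cacna1c, with 21.5. The highest intensity of 50 of the 60 genes was below 8, and of 45 below 5.

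**Figure D1:**
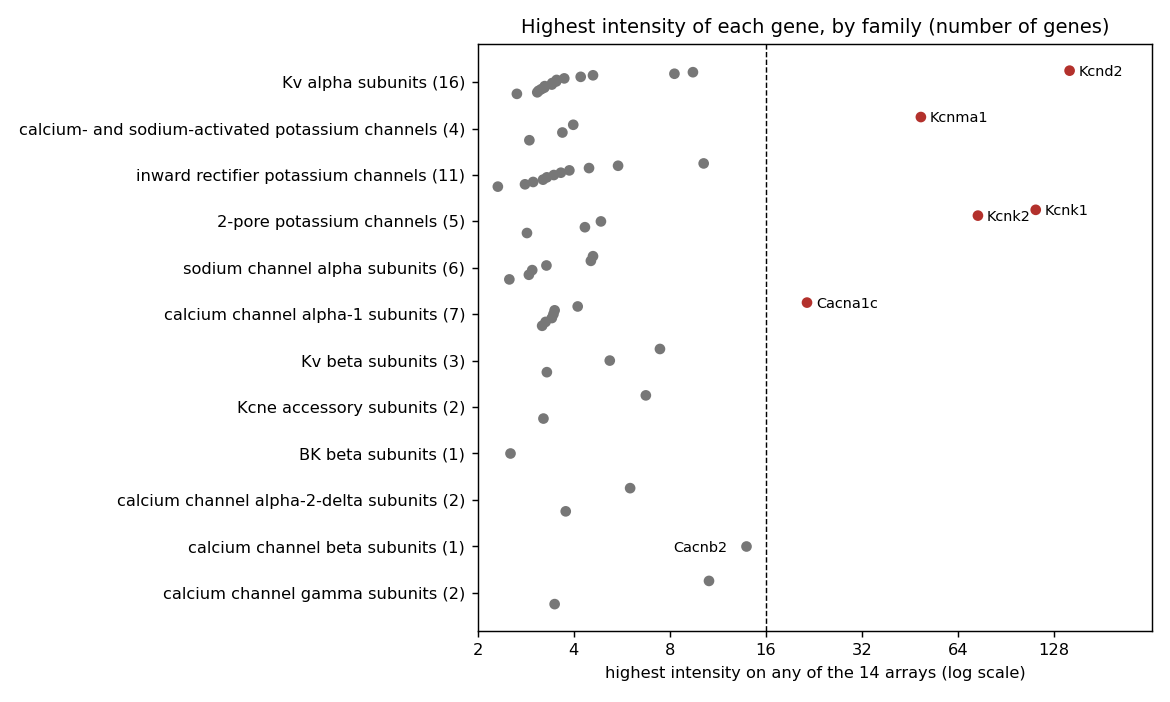
Highest intensity of each of the 60 genes on any of the 14 arrays (x axis, log scale), grouped by family, with the number of genes in brackets. The dashed line marks 16; the 5 red points lie beyond it, and Cacnb2 at 13.8 is the nearest of the grey points.

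A gene was called where limma's test gave an adjusted p under 0.05 over all 12422 probe sets tested. In pretumor against GCP samples, 0 channel genes were called higher and 3 lower, Kcnd2, Kcnk2 and Kcne1l. Over all genes, 1.99% were called higher and 3.25% lower in that comparison. In tumor against GCP samples, 0 were called higher and 2 lower, Kcnd2 and Kcne1l, with 1.7% of all genes higher and 3.93% lower. In tumor against pretumor samples 0 were called in either direction, with 0.133% of all genes higher and 0.957% lower. At an unadjusted p under 0.05, limma gave 7 channel genes (11.7%) in pretumor against GCP samples, where 18% of all genes passed. It gave 6 (10%) in tumor against GCP samples, with 18% of all genes, and 4 (6.67%) in tumor against pretumor samples, with 12.3% of all genes. The median log2 difference over the 60 genes was -0.035, 0.0 and 0.015, against -0.013, 0.003 and 0.018 over all genes. These adjusted shares lie near those of the whole array and are not a result about the channel families.

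**Figure D2:**
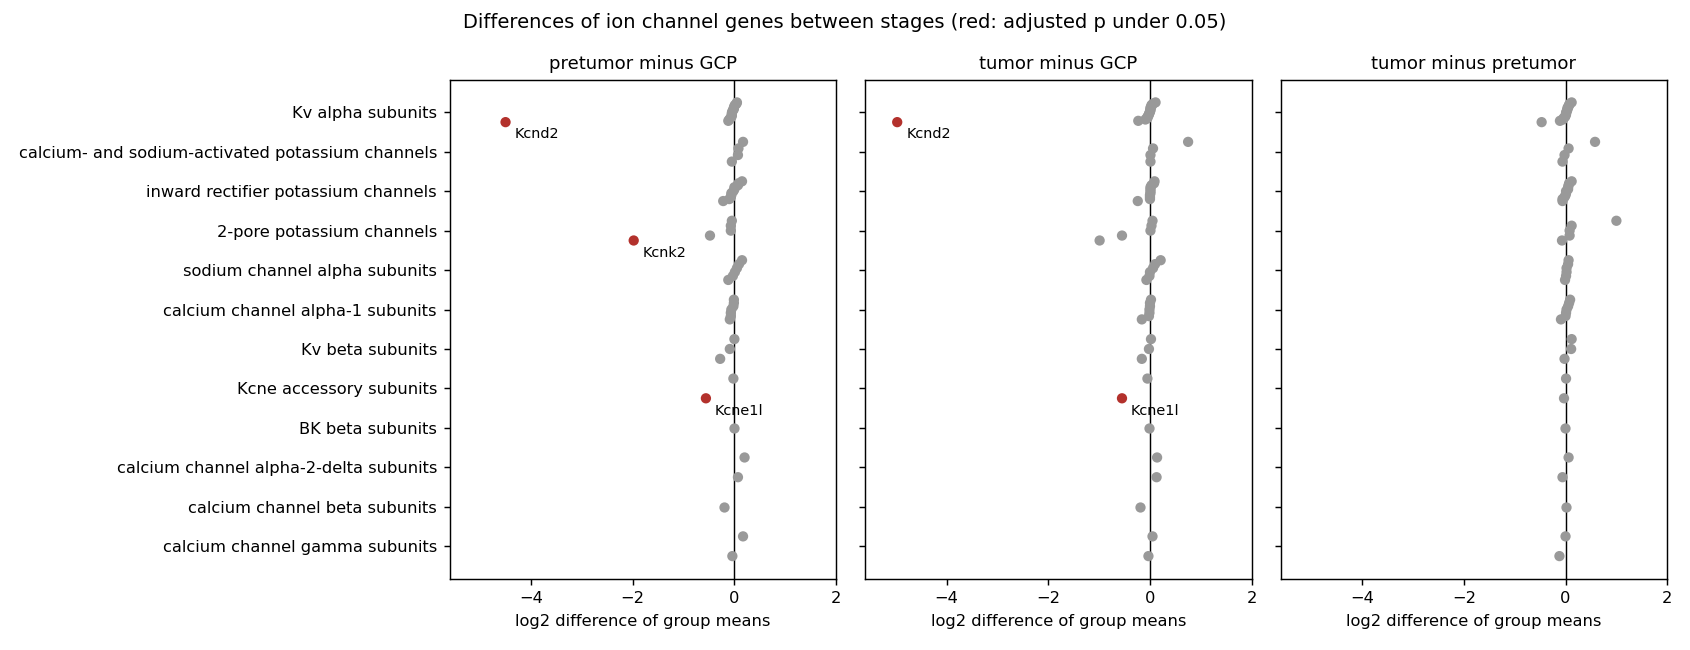
Log2 difference of group means (x axis) of each gene by family (rows), in 1 panel for each of the 3 comparisons; red points have an adjusted p under 0.05. Kcnd2 lies at -4.50 and -4.97 in the first and middle panels, and all but a few points lie close to 0.

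Kcnd2 and Kcne1l were lower in both later stages than in GCP, and each has 1 start site in the RefSeq table. Their promoters, 250 bases before to 50 after the start, are shown so that the sequence beside these genes can be read. Kcne1l changed within the low band alone, and shared regulation of the genes was not tested. They come from RefSeq, build GRCm38.p6, at chr6:21215096-21215395 on the plus strand for Kcnd2 and chrX:142306149-142306448 on the minus strand for Kcne1l, written 5′ to 3′, with matches to GGGCGG (a GC box) and CAGCTG (an E-box) on either strand in capitals.
Kcnd2: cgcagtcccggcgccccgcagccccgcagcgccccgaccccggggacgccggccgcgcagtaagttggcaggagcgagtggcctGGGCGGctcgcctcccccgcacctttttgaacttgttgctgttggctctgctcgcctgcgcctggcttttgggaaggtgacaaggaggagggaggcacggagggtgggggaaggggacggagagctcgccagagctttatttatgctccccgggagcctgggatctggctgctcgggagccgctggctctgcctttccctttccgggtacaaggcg
Kcne1l: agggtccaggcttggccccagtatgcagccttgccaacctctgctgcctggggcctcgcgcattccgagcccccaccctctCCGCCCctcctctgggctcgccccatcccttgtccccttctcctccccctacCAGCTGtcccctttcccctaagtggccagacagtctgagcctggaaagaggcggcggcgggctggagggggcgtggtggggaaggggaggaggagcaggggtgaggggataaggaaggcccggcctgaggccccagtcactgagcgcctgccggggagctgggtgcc
Both are rich in G and C, 68.7% for Kcnd2 and 69.7% for Kcne1l, against a median of 52.7% over the 32851 promoters of the table. Kcnd2 has 26 CpG and Kcne1l 12, against a median of 7. Each holds 1 GC box, which 35.7% of all promoters hold, and 0 TATA boxes (TATAAA on either strand, in 13.6% of promoters). Kcne1l has 1 E-box, and Kcnd2 has 0 in this window; 16.3% of promoters hold one. No motif overlaps another here.

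Kcnd2 forms the pore of a fast A-type potassium channel of dendrites and cell bodies, and granule neurons carry it. On probe set 99339_r_at it read 39.4, 59.9, 143 and 103 in the 4 GCP samples, 2.06, 2.40, 3.17, 3.92 and 6.03 in the pretumor samples, and 1.59, 2.35, 1.84, 2.12 and 1.75 in the tumor samples. All GCP samples lay above 16 and all others below it, with no overlap. GCP 3 and GCP 4 were higher than GCP 1 and GCP 2, in step with the pairs of arrays. On the log2 scale the means were 6.27 ± 0.83 in GCP samples, 1.76 ± 0.54 in pretumor samples and 1.30 ± 0.00 in tumor samples, where all 5 values were at the floor of 2.46 set for low intensities. Kcnd2 was at least 4.81-fold lower in pretumor than in GCP samples (log2 difference -4.50, SE 0.35, adjusted p = 3.2e-05) and at least 4.81-fold lower in tumor than in GCP samples (log2 difference -4.97, SE 0.35, adjusted p = 1.21e-05). The folds are bounds because the lower groups are counted as 16. With the GCP pairs averaged to 2 samples the adjusted p was 0.000576 and 0.000259, and without pretumor 3 and tumor 2 it was 0.000507 and 0.000226.

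On the other Kcnd2 probe set, 98364_at, no value left the low band. It read 3.15, 3.29, 2.74 and 2.61 in GCP samples, 1.97 to 2.52 in pretumor samples and 2.07 to 2.44 in tumor samples. Both later groups lay below all of GCP. The log2 difference was -0.25 for pretumor (adjusted p = 0.024) and -0.26 for tumor samples (adjusted p = 0.0207). All tumor values, and all pretumor values but that of pretumor 5 (2.52), lay below the floor of 2.46 and were set to it. The log2 SD was therefore 0.02 in pretumor and 0.00 in tumor samples, against 0.16 in GCP samples. These differences set GCP against nearly constant values, and their p-values rest on that small spread. The pretumor call ended without any 1 of GCP 1, GCP 2, pretumor 1, pretumor 2 or pretumor 4 (adjusted p up to 0.0738), and the tumor call without GCP 1 (adjusted p = 0.0627). Without pretumor 3 and tumor 2 neither passed (adjusted p = 0.0583 for pretumor and 0.0531 for tumor), nor with the compared groups alone (adjusted p = 0.0825 and 0.108). With the GCP pairs averaged the pretumor call ended (adjusted p = 0.058). The mean of both Kcnd2 sets gave log2 differences of -2.38 for pretumor and -2.61 for tumor minus GCP, and both were called (adjusted p = 5.49e-06 and 2.19e-06). That mean is carried by 99339_r_at and is no separate support from 98364_at. In the maker's naming the r in 99339_r_at marks a set for which rules of probe choice were relaxed, so the large difference rests on a set of that kind. The other family members, Kcnd1 and Kcnd3, did not exceed 3.41 and 3.73.

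**Figure D3:**
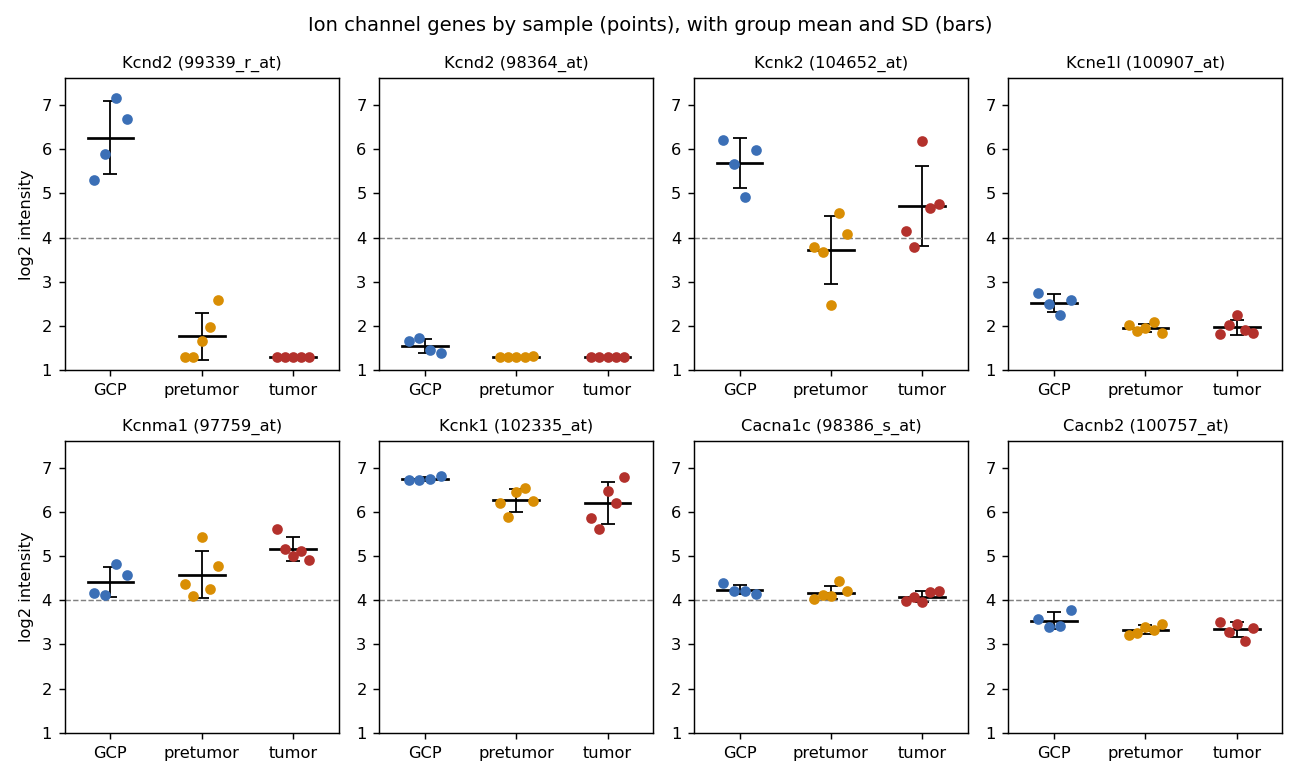
Log2 intensity (y axis) of 7 channel genes on 8 probe sets in each sample, by stage; points are samples, horizontal bars group means and error bars SD, and the dashed line marks an intensity of 16. Kcnd2 on 99339_r_at lies above the line in the 4 GCP samples alone, while Kcnma1 and Kcnk1 stay above it in all samples.

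Kcnk2 encodes TREK-1, a leak channel opened by stretch, lipids and warmth. It read 73.8, 50.4, 30.3 and 63.8 in GCP samples, 13.7, 12.9, 5.57, 23.4 and 16.8 in pretumor samples, and 17.8, 13.8, 72.7, 25.6 and 26.9 in tumor samples. The pretumor and GCP samples did not overlap, while tumor 3 matched the highest GCP samples and the other tumor samples lay below all of GCP. The pretumor mean was 3.71 ± 0.77, against 5.70 ± 0.56 in GCP, which is at least 3.24-fold lower (log2 difference -1.98, SE 0.50, adjusted p = 0.0473). Only 2 of the 5 pretumor arrays reached 16. This call stood near the threshold: it ended without any 1 of the 4 GCP arrays, of pretumor 1, 2, 3 and 5, or of tumor 1, 4 and 5 (adjusted p = 0.053 to 0.129). It also ended with the GCP pairs averaged (adjusted p = 0.25) and without pretumor 3 and tumor 2 (adjusted p = 0.0604). In tumor samples the mean was 4.71 ± 0.91, a difference of -0.99 from GCP (SE 0.50, adjusted p = 0.398) and of 1.00 from pretumor samples (SE 0.47, adjusted p = 0.459), and neither passed the test.

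Kcne1l, also called Kcne5, encodes a small single-span subunit that modifies potassium channels. It was called lower in both later stages, but wholly within the low band, so no fold is given. It read 6.72, 5.67, 4.71 and 6.01 in GCP samples, 4.05, 3.70, 3.89, 4.23 and 3.60 in pretumor samples, and 3.55, 4.08, 4.75, 3.76 and 3.62 in tumor samples. Pretumor and GCP samples did not overlap, and tumor 3 reached just past GCP 3. The log2 differences were -0.56 (SE 0.11, adjusted p = 0.0109) for pretumor minus GCP and -0.55 (SE 0.11, adjusted p = 0.0116) for tumor minus GCP. Without pretumor 3 and tumor 2 the adjusted p was 0.0323 and 0.0318. With the GCP pairs averaged it was 0.0467 and 0.0476, just under the threshold. With the compared groups alone the pretumor call stayed (adjusted p = 0.0198) and the tumor call ended (adjusted p = 0.067). Kcne1, a relative of Kcne1l and a partner of Kcnq1, did not exceed 3.21.

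Kcnma1, Kcnk1 and Cacna1c had signal without a call. Kcnma1 forms the pore of the large-conductance BK channel, which opens with both voltage and calcium. It read 17.9, 17.3, 28.0 and 23.8 in GCP samples, 20.5, 17.0, 43.1, 19.0 and 27.3 in pretumor samples, and 48.9, 35.8, 32.1, 34.6 and 30.2 in tumor samples. All tumor samples were above all GCP samples, while pretumor 3 lay among the tumor samples. The mean was 5.16 ± 0.27 in tumor against 4.41 ± 0.33 in GCP samples, a 1.68-fold difference (log2 difference 0.75, SE 0.26) that did not pass the test (adjusted p = 0.158). Against the pretumor mean of 4.58 ± 0.54 the tumor mean differed by 0.58 (SE 0.25, adjusted p = 0.389). Kcnmb1, the BK beta subunit on the array, did not exceed 2.52.

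Kcnk1 encodes TWIK-1, a weak background potassium channel. It read 104, 105, 108 and 112 in GCP samples, 73.6, 58.9, 87.4, 94.0 and 76.2 in pretumor samples, and 58.2, 49.2, 89.5, 74.0 and 111 in tumor samples. All pretumor samples and 4 of the 5 tumor samples were below all of GCP. The log2 differences were -0.48 (SE 0.21, adjusted p = 0.295) for pretumor minus GCP and -0.55 (SE 0.21, adjusted p = 0.209) for tumor minus GCP, and did not pass the test. Cacna1c forms the pore of an L-type calcium channel that couples activity to gene expression. Its intensities ran from 17.7 to 20.8 in GCP samples, from 16.3 to 21.5 in pretumor and from 15.5 to 18.6 in tumor samples, overlapping in all groups. Its differences from GCP were -0.07 (SE 0.08) in pretumor and -0.16 (SE 0.08) in tumor samples (adjusted p = 0.839 and 0.416).

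Of the 16 Kv alpha subunits, which form or join the voltage-gated potassium pores, all but Kcnd2 stayed below 16 on every array. These 15 were Kcna1, Kcna2, Kcna3, Kcna4, Kcna5, Kcna6, Kcna7, Kcnc1, Kcnd1, Kcnd3, Kcnh1, Kcnh2, Kcnq1, Kcns1 and Kcns2. Kcns2, a silent subunit that modifies Kcnb pores, ran from 7.65 to 9.44 over all samples. The 3 Kv beta subunits Kcnab1, Kcnab2 and Kcnab3, cytoplasmic partners of these pores, did not exceed 7.44, read by Kcnab2 in GCP 3. Kcnn1 and Kcnn4, opened by calcium, and Kcnu1, the sperm relative of the BK channel, did not exceed 3.98. Kcnk3, Kcnk4 and Kcnk7, the other 2-pore genes, did not exceed 4.86.

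The 11 inward rectifiers, which hold the resting potential and carry G protein signals, all stayed in the low band: Kcnj1, Kcnj2, Kcnj3, Kcnj4, Kcnj5, Kcnj6, Kcnj8, Kcnj9, Kcnj11, Kcnj12 and Kcnj15. Kcnj6, the gene mutated in the weaver mouse, in which granule cells die, did not exceed 2.98 on either probe set. Kcnj9 went up to 10.2. The 6 sodium channel alpha subunits, Scn1a, Scn3a, Scn7a, Scn8a, Scn9a and Scn10a, carry the upstroke of the action potential, apart from Scn7a, which senses sodium. None exceeded 4.59, the value of Scn8a in GCP 1. Sodium channel beta subunits and Kv channel-interacting proteins have no gene among the 60.

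Of the calcium channel alpha-1 subunits, Cacna1a, Cacna1b, Cacna1e, Cacna1g, Cacna1h and Cacna1s did not exceed 4.11. Cacna1a, the P/Q-type pore used at most central synapses and abundant in Purkinje cells, ran from 2.81 to 3.45. The accessory Cacna2d1 and Cacna2d3 stayed at or below 6.00. Cacnb2, a cytoplasmic beta subunit, read 10.5 to 13.8 in GCP samples, 9.34 to 11.1 in pretumor samples and 8.40 to 11.3 in tumor samples. Cacng2, or stargazin, which also brings AMPA receptors to the granule cell surface, read 6.35 to 7.33 in GCP samples, 5.77 to 10.6 in pretumor samples and 5.56 to 9.56 in tumor samples, and Cacng1 did not exceed 3.48. Over the 55 genes that never reached 16, log2 differences ran from -0.56 to 0.20 in pretumor minus GCP, from -0.55 to 0.21 in tumor minus GCP, and from -0.12 to 0.12 in tumor minus pretumor. Of these 55, 53, 54 and 55 lay within 0.25 of 0.

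Other ion transport genes, on lists drawn up by function, were set beside the channels. Of 19 measured genes of other channel families 17 never reached 16 (89.5%). The same held for 13 of 18 pumps and exchangers (72.2%), 11 of 23 channel anchors and partners (47.8%) and 8 of 14 genes of internal calcium release and buffering (57.1%). These lists held genes with clear signal with no call: the chloride transporter Clcn3 averaged 9.58 ± 0.10 log2 units in GCP samples, 9.52 ± 0.04 in pretumor samples and 9.44 ± 0.23 in tumor samples. Ankyrin-G (Ank3), which anchors sodium channels at the axon's start, averaged 9.72 ± 0.03 in GCP samples, 9.78 ± 0.23 in pretumor samples and 9.58 ± 0.18 in tumor samples. Ppp3ca, the catalytic subunit of calcineurin, averaged 10.10 ± 0.15 in GCP samples, 10.14 ± 0.21 in pretumor samples and 9.72 ± 0.58 in tumor samples.

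**Figure D4:**
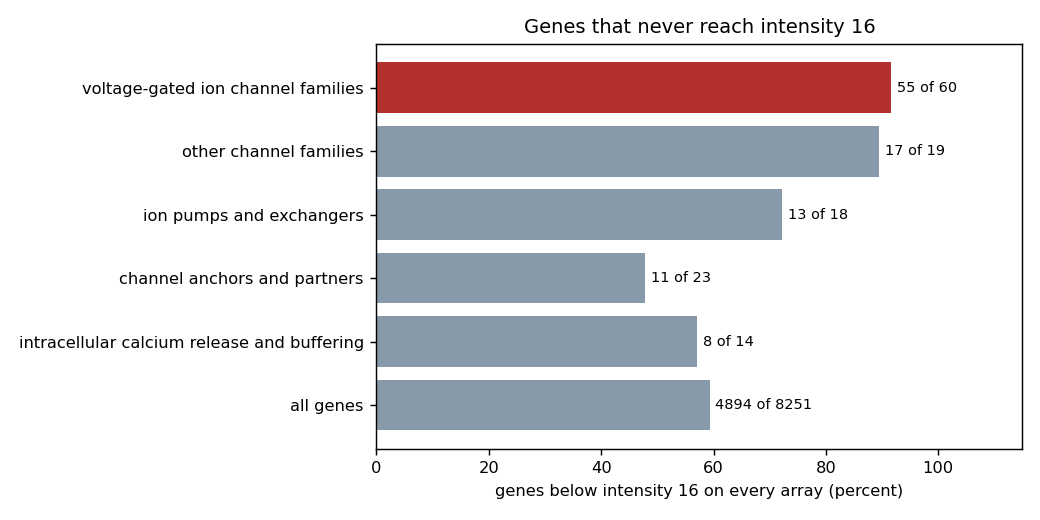
Percent of measured genes below an intensity of 16 on every array (x axis), for the channel families (red), 4 lists of other ion transport genes and all genes, with counts beside the bars. The channel families stand at 55 of 60 and all genes at 4894 of 8251.

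Of the channel anchors and partners 0 were called higher and 3 of 23 lower against GCP in both pretumor and tumor samples, Cntn1, Sptbn1 and Dpp6, with a list median of -0.04 and -0.09. Over all genes, 3.25% were called lower in pretumor and 3.93% in tumor samples than in GCP. Cntn1 and Sptbn1 are those with the larger change; Dpp6 was picked out after its values were seen, since it encodes an accessory subunit of the Kcnd2 channel. Dpp6 read 11, 12.8, 22.7 and 12.0 in GCP samples, 6.01 to 7.85 in pretumor samples and 6.94 to 7.97 in tumor samples. Both later groups lay below all of GCP, and GCP 3 alone reached 16. The log2 difference was -1.0 for pretumor minus GCP (adjusted p = 0.00705) and -0.92 for tumor minus GCP (adjusted p = 0.0102); all 3 means lie in the low band, and with a floor at 16 both differences were -0.13 and neither was called (adjusted p = 1). The tumor call also ended with the compared groups alone (adjusted p = 0.0615).

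Cntn1, contactin, a surface protein that binds sodium channels and axonal partners, read 80.4, 98.8, 180 and 160 in GCP samples, 33.5, 17.0, 80.2, 37.1 and 30.8 in pretumor samples, and 25.9, 26.6, 32.8, 18.1 and 10.7 in tumor samples. It was 5.77-fold lower in tumor than in GCP samples (adjusted p = 0.00628, and adjusted p = 0.0666 with the GCP pairs averaged). In pretumor samples it was 3.52-fold lower than in GCP (adjusted p = 0.0381), which did not pass with 1 of GCP 2, 3 or 4, pretumor 1, 2, 4 or 5, or tumor 4 left out (adjusted p up to 0.125) or with the GCP pairs averaged (adjusted p = 0.234). Sptbn1, a spectrin of the membrane skeleton, averaged 8.35 ± 0.14 in pretumor samples and 8.45 ± 0.41 in tumor samples, against 9.58 ± 0.14 in GCP samples. It was 2.34-fold lower in pretumor (adjusted p = 0.00232) and 2.18-fold lower in tumor samples (adjusted p = 0.00349).

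**Figure D5:**
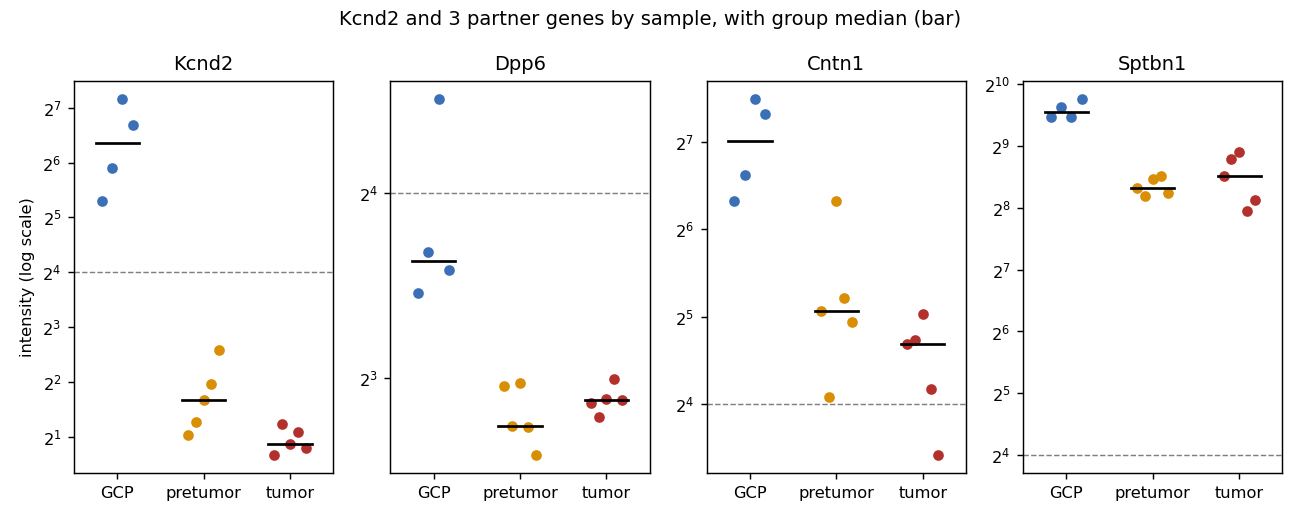
Intensity (y axis, log scale, a separate range per panel) of Kcnd2 on 99339_r_at and of Dpp6, Cntn1 and Sptbn1 in each sample, by stage; points are samples, bars group medians, and the dashed line marks 16. In all 4 panels every pretumor and tumor sample lies below the lowest GCP sample, by the least for Cntn1 in pretumor 3 (80.2, against 80.4 in GCP 1). Dpp6, Cntn1 and Sptbn1 are shown because they are the 3 of 23 listed partners called lower. Their separation follows from that choice and is not a result about the partners as a set.

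Of 18 pumps and exchangers 1 was lower in pretumor and 2 in tumor samples than in GCP, and 1 was higher in tumor than in pretumor samples. The shares over all genes in these comparisons were 3.25%, 3.93% and 0.133%. Slc8a1, a sodium-calcium exchanger, read 53.6 to 55.5 in GCP samples, 14.2 to 19.1 in pretumor samples and 32.1 to 41.6 in tumor samples, with no overlap between any groups. It was 3.07-fold lower in pretumor than in GCP (adjusted p = 4.82e-06), 1.47-fold lower in tumor than in GCP (adjusted p = 0.00698, and adjusted p = 0.0907 with the GCP pairs averaged) and 2.10-fold higher in tumor than in pretumor samples (adjusted p = 0.000282). As the mean over all probe sets of Slc8a1, the log2 differences were -0.54, -0.16 and 0.38, against -1.62, -0.55 and 1.07 on this set. All 3 were still called, but the mean includes this set and is no separate support. The other sets, whose own values are not given here, thus changed less on average. Atp1b3, a beta subunit of the sodium pump, was 1.63-fold lower in tumor than in GCP samples, at 11.30 ± 0.30 against 12.01 ± 0.07 (adjusted p = 0.00747, but adjusted p = 0.0907 with the GCP pairs averaged and adjusted p = 0.0522 with the compared groups alone). Of the other channel families only Trpc1, a cation channel, was called, lower in pretumor (-0.55, adjusted p = 0.0297) and tumor samples (-0.53, adjusted p = 0.0351) within the low band. These calls ended without any 1 of 7 and of 9 arrays, GCP 1, 2 and 4 among them in both (adjusted p up to 0.0705 and 0.0851). Of the 14 genes of calcium release and buffering 1 was called, Calb1, lower by 2.33 in tumor than in pretumor samples (adjusted p = 0.0489). Calb1 averaged 4.26 ± 1.02 in pretumor and 1.92 ± 0.15 in tumor samples, so the tumor mean lies in the low band. This call, close to the threshold, was not followed under the alternatives.

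Markers of several cell types moved in the same direction as Kcnd2 and Kcnk2. In a mixed suspension fewer cells of a type and less RNA per cell cannot be told apart. Beside the marker counts that follow, 1.99% of all genes were called higher and 3.25% lower in pretumor than in GCP samples. In tumor against GCP samples these shares were 1.7% and 3.93%. Of 8 granule neuron markers 2 were lower in each later stage than in GCP, Neurod1 and Cbln1, with a list median of -0.25 and -0.36. The summed intensity of the 8 was 3020 to 5683 in pretumor and 2855 to 5684 in tumor samples, against 8576 to 9971 in GCP samples. Such sums add raw intensities, so the markers with the highest values weigh most. Neurod1 alone read 6670 to 7660 in GCP samples, 2230 to 4010 in pretumor samples and 1760 to 3940 in tumor samples. The mature markers Gabra6, Gabrd, Grin2c and Calb2, with Neurod2 and Cbln1, stayed in the low band. Of 8 granule cell precursor markers 1, Pax6, was lower in each later stage, and Atoh1 and Gli1 stayed in the low band. The list median was -0.1 in pretumor and -0.02 in tumor samples. The sum was 6905 to 10462 in pretumor and 6840 to 10907 in tumor samples, against 8891 to 11346 in GCP samples. Of 9 interneuron markers 3 were lower in each later stage, Gad1, Slc32a1 and Lhx5, but the list median was only -0.08 and -0.05. The sums of the 9 were 50 to 82 in pretumor and 42 to 64 in tumor samples, against 92 to 181 in GCP. Gad1 weighs most in the GCP sums, at 50.4 to 138, while Slc32a1 and Lhx5 did not exceed 8.97 and 5.87. Gad2, Pax2, Sst, Npy, Slc32a1 and Lhx5 stayed in the low band.

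Of 9 astrocyte markers 1 was lower and 1 higher in pretumor and 5 were lower in tumor samples than in GCP, with sums of 1314 to 2102 in pretumor and 497 to 1939 in tumor samples, against 9693 to 13329 in GCP; Slc1a2 alone stayed in the low band. Fabp7 was the 1 called lower in pretumor samples, at 9.78 ± 0.40 against 13.24 ± 0.22 in GCP. It had the highest mean of these markers and weighs most in the GCP sums. Aldoc was the 1 called higher in pretumor samples, by 1.23. Gja1 was at 8.93 ± 0.25 in pretumor samples, against 9.43 ± 0.29 in GCP. The median difference of this list was -0.50 in pretumor and -0.69 in tumor samples. Of 11 endothelial and pericyte markers 4 were lower in pretumor and 6 in tumor samples than in GCP, with a list median of -0.24 and -0.39. Their sums were 55 to 75 in pretumor and 39 to 59 in tumor samples, against 98 to 134 in GCP samples; Pecam1, Cdh5, Tek, Kdr, Flt1, Vwf, Pdgfrb, Rgs5 and Abcc9 stayed in the low band. The part of these cells in the channel differences was not tested.

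Of the remaining cell types, none had a marker called lower in pretumor samples than in GCP. Of 7 Purkinje cell markers 1, Ppp1r17, was higher in pretumor samples than in GCP, by 0.21 log2 units within the low band (highest intensity 3.52). Pcp2, Pcp4, Slc1a6, Ppp1r17 and Gad2 stayed in the low band. The sums of the 7 were 35 to 73 in pretumor and 23 to 29 in tumor samples, against 25 to 53 in GCP. Calb1 was the Purkinje cell marker called lower in tumor than in pretumor samples. Of 14 microglia markers 2 were higher in each later stage than in GCP, with sums of 813 to 1365 in pretumor and 637 to 1896 in tumor samples, against 155 to 384 in GCP. Of 10 oligodendrocyte markers 3 were higher in pretumor and 1 lower in tumor samples than in GCP, with sums of 300 to 780 in pretumor and 139 to 220 in tumor samples, against 200 to 324 in GCP. Of 5 choroid plexus and ependyma markers 1 was higher in pretumor samples than in GCP, with sums of 5149 to 14525 in pretumor and 22 to 1157 in tumor samples, against 626 to 3213 in GCP. Ttr, which was not called, had the highest mean of these markers and weighs most in the GCP and pretumor sums. It averaged 10.77 ± 1.05 in GCP samples, 12.92 ± 0.63 in pretumor samples and 7.01 ± 3.37 in tumor samples. The part of these cell types in the channel values was likewise not tested.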

How the data were processed

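The deposited table gives 1 intensity per probe set and sample on a linear scale; the authors' method of summarising and normalising was not given in the sources used here. Array medians differed by at most 0.094 on the log2 scale, under a limit of 0.2, and no normalisation was added. The 66 control probe sets were left out, and 12422 were tested. Intensities were floored at their 10th percentile, 2.46, and taken to log2. limma 3.58.1 in R 4.3.3 fitted 3 group means to all 14 arrays (11 residual degrees of freedom), tested 3 contrasts two-sided, and adjusted p-values by Benjamini-Hochberg over all probe sets. The fit was tested on simulated data. Symbols came from the platform annotation, and all 60 gene IDs were found in the RefSeq table. A fold with 1 group mean below 16 is a bound against 16. Arrays have no read depth; their number limits the precision. Members, lists and the limit of 16 were chosen with earlier results of these data known. Genes are named if called, if they reached 16, or as the highest mean of their family. Some other low genes, such as Kcnd1, Kcnd3, Kcne1, Kcnj6 and Cacna1a, are given outside this rule, and Kcnj8 and Scn1a were picked after seeing the data. Of other lists, called members with the largest change are named, and for some the member with the highest mean (Clcn3, Ank3 and Ppp3ca). Replicate numbers were not taken to pair samples. The alternatives are limits of 8 and 32, a floor or pseudocount of 16, quantile normalisation, a filter at 16 on 4 arrays, the compared groups alone, a replicate block, trend and robust eBayes, the mean of a gene's probe sets, averaged GCP pairs, and left-out arrays.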

Additional observations from a re-analysis of the deposited data

How the results depend on the processing

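The count of channel genes that never reached 16 was 55 without any 1 array, with quantile normalisation and over any probe set of a gene. With the limit moved, 50 genes never reached 8 and 56 never reached 32. The count called in pretumor against GCP was 3, and 2 to 3 without any 1 array; it was 1, Kcnd2, with a floor at 16 and with a replicate block. The count called in tumor against GCP was 2, also without any 1 array; it was 1, Kcnd2, with a floor at 16, with probe sets at 16 on at least 4 arrays alone (5 channel genes left), with the compared groups alone and with a replicate block. In tumor against pretumor it was 0 throughout. A floor at 16 leaves Kcne1l, which lies below 16, without any difference, and the filter removes it. The replicate block gave Kcnd2 differences of -4.61 and -5.07 from GCP (adjusted p = 0.000822 and 0.00045), and those of Kcne1l (adjusted p = 0.0688 and 0.0717) and Kcnk2 in pretumor samples (adjusted p = 0.136) ended, as did those of the other Kcnd2 probe set (adjusted p = 0.0628 and 0.0532). Of 13 pairs of samples with the same number 4 correlated above 0.1 (r from -0.323 to 0.51). These correlations do not show that the numbers pair samples, and they cannot exclude it. With a floor of 16 or log2(value + 16), the Kcnd2 differences from GCP shrank to between -2.27 and -2.40 and kept their calls. With log2(value + 16), the called differences of Kcnk2, Kcne1l, the other Kcnd2 probe set, Dpp6 and Trpc1, and those of Slc8a1 that involve pretumor samples, shrank by over 1.5 times and kept their calls, and a floor at 16 ended the calls of Trpc1 and of the other Kcnd2 probe set. The mean over probe sets gave Trpc1 -0.29 in both comparisons, still called, though that mean includes the set with the larger difference. Of 779 values of named genes under the alternatives, 81 lost their call, 0 gained one and 10 changed sign. The 779 include comparisons not called in the main fit, such as all those of Cacna1c, Kcnk1 and Kcnma1, which had no call to lose. The share of calls that ended is thus higher than 81 of 779. The 10 that changed sign were uncalled and near 0. Kcne1l in tumor minus pretumor was -0.01 with quantile normalisation and ran from -0.05 to 0.05 without any 1 array (-0.0041 without pretumor 2, -0.01 without pretumor 5, -0.05 without tumor 3). Kcnk1 in tumor minus pretumor was 0.12 without pretumor 3 and tumor 2, and ran from -0.22 to 0.07 without any 1 array (0.01 without tumor 1, 0.07 without tumor 2). Kcnma1 in pretumor minus GCP was -0.05 without pretumor 3 and tumor 2, and ran from -0.05 to 0.3 without any 1 array (-0.05 without pretumor 3). The other Kcnd2 probe set in tumor minus pretumor was 0.01 with log2(value + 16). The alternatives for Dpp6, Cntn1, Sptbn1, Slc8a1, Atp1b3 and Trpc1 were chosen after seeing the data. Signal near background limits the 55 low genes: a change within that band may be missed.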

Other observations

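Some channel genes in the low band varied between samples of a group. Kcnj9, a subunit of G protein-gated inward rectifiers, read 3.99, 3.55, 7.77, 4.14 and 10.2 on probe set 161799_r_at in the pretumor samples, so pretumor 3 and pretumor 5 were highest; on its other probe set, 98332_at, the same samples read 3.57 and 3.70 and were the lowest of the group. Scn1a, a sodium channel of inhibitory neurons, read 4.52 in tumor 2 on probe set 162255_s_at, against 2.03 to 2.79 in the other tumor samples. Kcnj8, a pore of pericytes and smooth muscle, read 5.50 in tumor 3, against 3.64 to 4.14 in the other tumor samples. These values were picked after seeing the data, and no cause was tested.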
